A study of Sus scrofa with 75 samples.

Results

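Lung RNA of 4 pigs coded BS was compared with lung RNA of 4 pigs coded DSE. The 8 short-read libraries were taken by their labels, lung as the tissue and BS1 to BS4 or DSE1 to DSE4 as the animal, out of 75 labelled samples of pig (Sus scrofa) heart, kidney, liver, lung and spleen. All animals were labelled as adult males aged 12 months, the labels expand neither code, and they name no treatment or genotype for either group. The submitters title the study as a transcriptome of a Chinese local pig. Each library held rRNA-depleted total RNA, and its level of each gene was deposited in TPM (transcripts scaled to a common total), which accounts for transcript length and library total. The depth of these libraries is unknown from TPM, and the n of 4 in each group are the animal numbers in the labels.

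The lung joins a large alveolar surface, lined by flat type I cells for gas exchange and by type II cells that secrete surfactant, to conducting airways lined by ciliated, secretory and basal cells. Capillary endothelium, fibroblasts, smooth muscle and resident or passing immune cells make up most of the rest. Immediate early genes (mostly transcription factors), heat shock genes and cytokines are known to respond quickly to stimulation and stress. In whole tissue, fewer cells of a type and less RNA per cell cannot be told apart.

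The libraries carried the lung's defining marker, with differences in other respects. SFTPC, surfactant protein C of type II cells, had 33105, 53199, 24604 and 14993 TPM in BS lungs, against 20457, 14268, 13899 and 25879 TPM in DSE lungs. The groups overlapped, and an exact two-sided permutation test of the means gave p = 0.2 (where 0.0286 is the smallest possible with 4 against 4). All 8 libraries were labelled male, but 12 genes of the Y chromosome were present in all 5 tissues of BS4 alone: EIF1AY, a translation factor, was at 75.4 TPM in BS4 lung, while none of the 12 passed 0.0476 TPM in the 35 libraries of the other 7 animals. The labelled sex is at odds with these values in those 7 animals. DSE2 lung stood apart in the airway protein AGR2 (303 TPM), the gene PHEROC (203 TPM) and the cartilage genes CHAD (58.2 TPM) and HAPLN1 (18 TPM). The first principal component of log2(TPM + 1), 52.2% of the variance, lay between 11.5 (BS4) and 71.4 (BS2) in BS lungs and between -52.6 and -32.7 in DSE lungs. The mitochondrial genome took 7.52 ± 1.1% of TPM in BS lungs and 7.45 ± 0.0776% in DSE lungs (SD, n = 4 each, exact permutation p = 1). Counts of 4 or more genes below are also given without BS4 or without DSE2 where that moves them by more than 1.5 times.

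More genes were lower than higher in BS lung. Of 15025 genes that averaged 1 TPM or more in BS or DSE lungs, 404 (2.69%) were higher and 956 (6.36%) lower in BS lung at a limma adjusted p under 0.05 and at least 2-fold. Here and below a gene rose or fell only if it passed both limits, and fold changes are on the log2(TPM + 1) scale as BS over DSE, which understates changes of low genes. Counts of called members of lists below stand beside these shares of all genes, 2.69% and 6.36%. A count near them is no result about the list. The median log2 fold change of all genes tested was -0.21, and lists of genes are therefore also given relative to it. Scaling the libraries by median ratios brought that median to -0.047, with 726 genes higher and 512 lower, so the split between directions depends on the scaling. Among the genes named below, these lower calls were lost under that scaling: IL33, TGFB2, IL6R, IL18RAP, CCL26, NR3C1, HSD11B1, RORA, PDK1, EGLN3, TF, AHR, SEL1L, CLK1, RSPH1, DNAH5, CAV1, CLIC5, LUM, COL14A1, KLRK1, ICOS, JCHAIN, PGLYRP1, CFI, TFPI2 and LBP. Without BS4, 502 genes were higher and 1533 lower. Without BS2, 360 were higher and 510 lower. Lung had the largest share of called genes of the 5 tissues, 9.05%, against 4.48% in kidney, 3.37% in liver, 2.98% in spleen and 2.59% in heart. Some genes named below overlap another annotated gene, and their reads may be shared with it. On the same strand these are HSPA6, CH25H, RAB1B, PET117, ATF3, HPGD, DCN, CD74, PSMB10, EGFL7, PDGFRA, SREBF1, AGPAT2, CYP2C42, COX3 and ENSSSCG00000037986. On the other strand they are HSP70.2, HBM, NCBP2AS2, CRTAC1, ABCA9, CLIC5, CCDC39, SOX18, HIGD1B, SYNPO2, CHAD, JCHAIN, HSPB1, BAG3, IFIT2, TFPI2, COX4I1, MCM2, PLK1, IGFBP7, FAM13C and ENSSSCG00000037565.

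**Figure D1:**
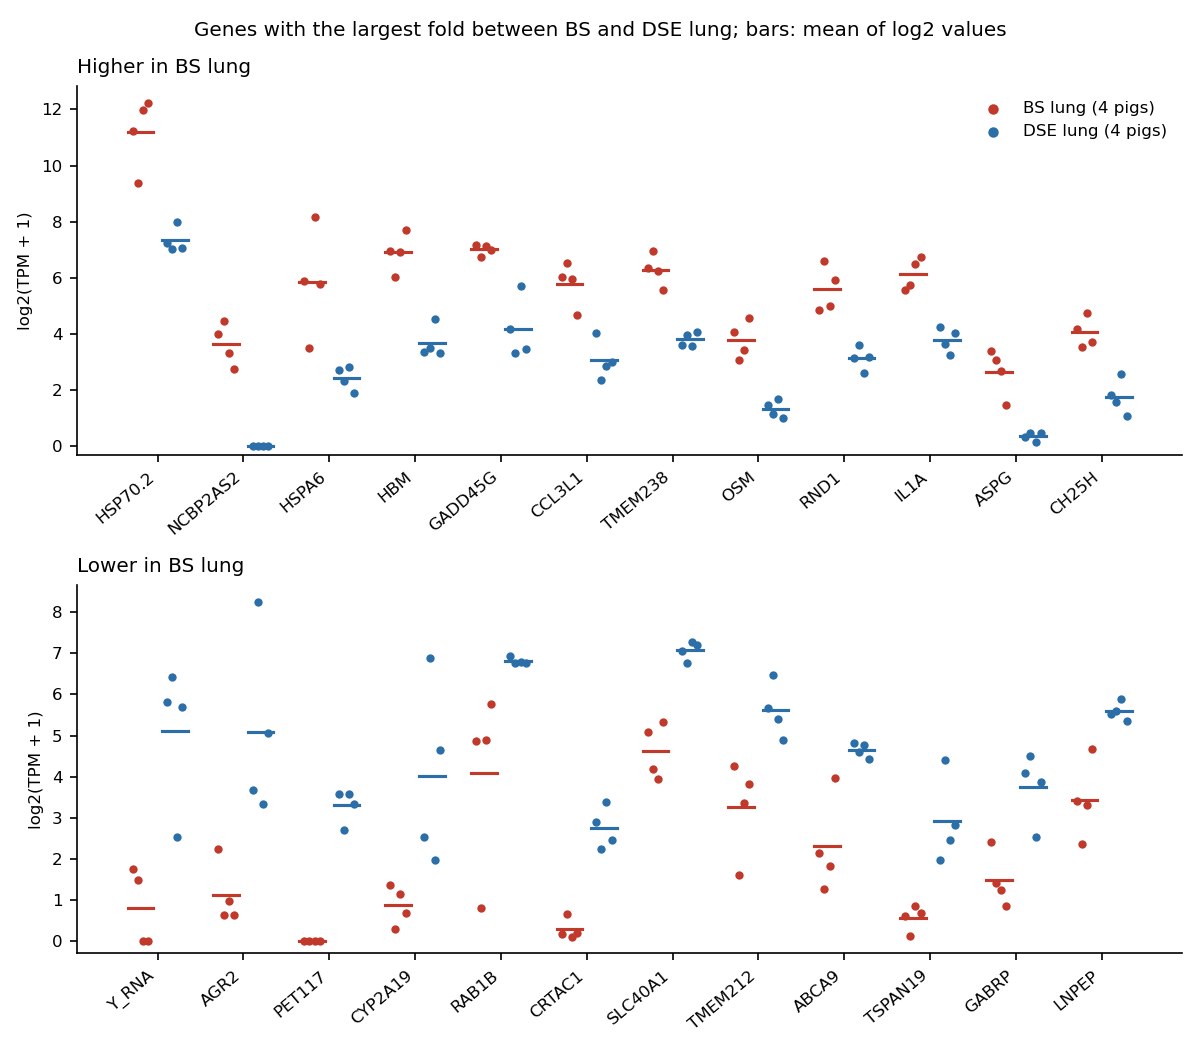
Levels in log2(TPM + 1) of the 12 genes with the largest fold in each direction among called genes that had a symbol, averaged 5 TPM or more in the higher group and showed no overlap between the groups, with histone, mitochondrial genome and immune receptor segment genes left out. Points are libraries, 4 BS lungs left and 4 DSE lungs right for each gene, and bars are means of the log2 values. NCBP2AS2 is listed at 0 in all 4 DSE lungs and PET117 in all 4 BS lungs.

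Inducible heat shock genes were among the largest rises in BS lung. HSP70.2, an inducible HSP70 chaperone (ENSSSCG00000029160, chromosome 7, 23914891 to 23928177 of susScr11), had 2383, 658, 4042 and 4781 TPM in BS lungs, against 152, 129, 252 and 134 TPM in DSE lungs. The lowest BS lung was above the highest DSE lung (log2 fold change 3.86 ± 0.56 (SE), limma adjusted p = 0.00298), and reads of its near-identical copies cannot be told apart here. HSPA6, a strictly inducible HSP70, had 58.7, 10.2, 287 and 54.5 TPM in BS lungs, against 5.51, 4.02, 6.1 and 2.73 TPM in DSE lungs (log2 fold change 3.4 ± 0.8 (SE), limma adjusted p = 0.0119). BS3 held the highest level of HSPA6 and BS2 the lowest of the BS lungs. DNAJB1, the HSP40 partner of HSP70, had 372, 196, 576 and 507 TPM in BS lungs, against 93.2, 84.8, 136 and 83.7 TPM in DSE lungs (log2 fold change 1.96 ± 0.32 (SE), limma adjusted p = 0.00405). HSPB1, the small heat shock protein HSP27, averaged 1169 ± 244 TPM in BS lungs and 333 ± 31 TPM in DSE lungs (SD, n = 4 each; log2 1.79), and BAG3, a co-chaperone of selective autophagy, averaged 54.8 ± 6.18 TPM in BS lungs and 25.5 ± 3.54 TPM in DSE lungs (log2 1.08). Of 22 heat shock and chaperone genes tested, those 4 on the list (HSPA6, DNAJB1, HSPB1 and BAG3) rose and 1 fell, with a median 0.60 above that of all genes. The member that fell was HSPA4L, a member of the HSP110 family, at 4.77, 1.89, 6.11 and 5.56 TPM in BS lungs, against 9.43, 18.1, 11.2 and 10.3 TPM in DSE lungs, and without BS2 that call was lost (log2 fold change -1.0, adjusted p 0.0136). At any fold at an adjusted p under 0.05, 11 of the 22 were higher and 4 lower, where 14.3% of all genes tested were higher and 26.7% lower. Under median-ratio scaling 7 members of the list rose and 1 fell.

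Part of the immediate early genes rose too. Among 25 tested 6 rose and none fell, with a median 0.82 above that of all genes, of which 2.69% rose. At any fold at an adjusted p under 0.05, 7 were higher and 1 lower, where 14.3% of all genes tested were higher and 26.7% lower. In 1 member every BS lung lay below every DSE lung. JUNB, an AP-1 subunit, had 317, 328, 336 and 296 TPM in BS lungs, against 205, 68, 116 and 101 TPM in DSE lungs (log2 fold change 1.49 ± 0.28 (SE), limma adjusted p = 0.00564). EGR3, a zinc finger factor, had 7.43, 4.04, 6.01 and 5.0 TPM in BS lungs, against 1.64, 1.71, 0.85 and 1.44 TPM in DSE lungs (log2 fold change 1.45 ± 0.21 (SE), limma adjusted p = 0.00288). All BS lungs were above all DSE lungs in both genes. ATF3, a stress-induced factor of the ATF family, averaged 157 ± 58.8 TPM in BS lungs and 67.4 ± 15.8 TPM in DSE lungs, and NR4A1, an orphan nuclear receptor, averaged 377 ± 113 TPM in BS lungs and 172 ± 46.6 TPM in DSE lungs (SD, n = 4 each). ATF3 lost its call without BS4 (log2 fold change 0.94, adjusted p 0.00591) and NR4A1 without BS4 or DSE3 (log2 fold change 0.92 to 0.96, adjusted p 0.0204 to 0.0311). EGR2 and ZFP36, which codes for an RNA-binding protein that shortens the life of cytokine mRNAs, were the other two, named after their values were seen, with log2 fold changes of 1.63 and 1.28. EGR2 lost its call without BS3, BS4, DSE2, DSE3 or DSE4 (log2 fold change 1.27 to 1.64, adjusted p 0.0643 to 0.0893), and ZFP36 without BS3, DSE2 or DSE4 (log2 fold change 0.96 to 1.27, adjusted p 0.0471 to 0.0671). FOS, an AP-1 subunit that pairs with JUN proteins, overlapped between groups at 878, 543, 829.98 and 1021 TPM in BS lungs, against 989.8, 147, 505 and 354 TPM in DSE lungs (adjusted p = 0.136). Without BS4 3 members rose, and without DSE2 4. GADD45G, a growth arrest and DNA damage gene outside the list, had 143, 105, 139.6 and 127 TPM in BS lungs, against 17.1, 8.91, 51.4 and 9.96 TPM in DSE lungs (log2 fold change 2.84 ± 0.46 (SE), limma adjusted p = 0.00397), with DSE3 the highest of the DSE lungs.

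Cytokine and chemokine genes moved in both directions, with fewer falls under median-ratio scaling. Of 38 interleukins and inflammatory cytokine genes 7 rose and 5 fell, and the median was 0.22 above that of all genes. OSM, oncostatin M of the IL-6 family, had 15.8, 7.48, 9.8 and 22.6 TPM in BS lungs, against 1.79, 1.19, 2.2 and 0.992 TPM in DSE lungs (log2 fold change 2.47 ± 0.32 (SE), limma adjusted p = 0.00244). IL1A, interleukin 1 alpha, an alarm signal of epithelium and macrophages, had 46.4, 52.7, 89.7 and 106 TPM in BS lungs, against 18.2, 11.5, 8.38 and 15.4 TPM in DSE lungs (log2 fold change 2.35 ± 0.31 (SE), limma adjusted p = 0.00251). In both, the BS lungs lay above the DSE lungs without overlap. SOCS1, a feedback inhibitor of cytokine signalling, averaged 18.2 ± 3.08 TPM in BS lungs and 5.3 ± 2.07 TPM in DSE lungs (SD, n = 4 each; log2 1.65, adjusted p = 0.00279). SOCS3, its relative downstream of IL-6 type cytokines, IL6 itself, CSF3, the neutrophil growth factor, and TNFAIP3, an inhibitor of NF-kB, also rose, by log2 1.54, 1.37, 1.21 and 1.01. Of these, IL6 lost its call without BS2, DSE1, DSE2 or DSE4 (log2 fold change 0.95 to 1.4, adjusted p 0.0264 to 0.0631), CSF3 without BS1, BS2, BS3, DSE1, DSE2, DSE3 or DSE4 (log2 fold change 0.78 to 1.35, adjusted p 0.0455 to 0.0977) and TNFAIP3 without BS1, BS4, DSE1 or DSE4 (log2 fold change 0.81 to 0.98, adjusted p 0.0135 to 0.0383).

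IL18, an inflammasome-released cytokine, ran the other way. It had 19.3, 24.7, 15.5 and 21.4 TPM in BS lungs, against 48, 63.2, 37.4 and 53.1 TPM in DSE lungs (log2 fold change -1.27 ± 0.19 (SE), limma adjusted p = 0.00307), and every BS lung was below every DSE lung. IL33, an epithelial and endothelial alarmin, TGFB2, a TGF-beta ligand, and the receptor chains IL6R and IL18RAP were the other members that fell, with log2 fold changes of -1.07, -1.15, -1.09 and -1.07, and were named after their values were seen. IL33 lost its call without BS1, BS3, BS4, DSE1, DSE2, DSE3 or DSE4 (log2 fold change -1.2 to -0.82, adjusted p 0.0506 to 0.0981), TGFB2 without BS2 (log2 fold change -0.97, adjusted p 0.0163), IL6R without BS2, BS3, DSE1 or DSE2 (log2 fold change -1.07 to -0.78, adjusted p 0.026 to 0.0654) and IL18RAP without BS1, BS2, BS3, DSE3 or DSE4 (log2 fold change -1.07 to -0.87, adjusted p 0.0508 to 0.0655). Without DSE2 5 members of the list rose and 3 fell, and under median-ratio scaling 8 rose and 1 fell.

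Of 36 chemokines and chemokine receptors 8 rose and 2 fell, with a median 0.49 above that of all genes. CCL3L1, a macrophage chemokine of a family with near-identical copies, had 63.5, 90.7, 60.5 and 24.7 TPM in BS lungs, against 15.5, 4.16, 6.17 and 6.96 TPM in DSE lungs (log2 fold change 2.73 ± 0.44 (SE), limma adjusted p = 0.00387). CCL22, a ligand of CCR4 made by dendritic cells, had 8.07, 8.9, 6.06 and 12.6 TPM in BS lungs, against 0.974, 1.97, 1.2 and 0.93 TPM in DSE lungs (log2 fold change 2.11 ± 0.23 (SE), limma adjusted p = 0.0016). Neither gene overlapped between the groups. CXCL2, a neutrophil chemokine, averaged 298 ± 107 TPM in BS lungs and 79.6 ± 22 TPM in DSE lungs (log2 1.86), CCL4 averaged 74.6 ± 25.2 TPM in BS lungs and 20.7 ± 5.07 TPM in DSE lungs (log2 1.77) and CCL17, another CCR4 ligand, averaged 14 ± 3.79 TPM in BS lungs and 3.4 ± 1.42 TPM in DSE lungs (log2 1.79; SD, n = 4 each). CCL8, CCL21 and CXCL8 completed those that rose, by log2 2.09, 1.36 and 1.66, and CCL26 and CCL28 fell, with log2 fold changes of -1.12 and -1.19. Each of those calls was lost when any 1 of 2 to 6 libraries was left out. CCL8 lost its call without BS1, BS2, DSE2, DSE3 or DSE4 (log2 fold change 1.45 to 2.17, adjusted p 0.0564 to 0.0905), CCL21 without BS1, DSE1 or DSE2 (log2 fold change 1.18 to 1.27, adjusted p 0.0573 to 0.0649), CXCL8 without DSE3 or DSE4 (log2 fold change 1.44, adjusted p 0.0535 to 0.0561), CCL26 without BS2, BS3, DSE2, DSE3 or DSE4 (log2 fold change -1.18 to -0.91, adjusted p 0.0544 to 0.0827) and CCL28 without BS2, BS3, BS4, DSE1, DSE2 or DSE3 (log2 fold change -1.29 to -0.93, adjusted p 0.0511 to 0.0739). Without DSE2 6 members rose and none fell.

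CH25H and RND1 were further genes among the largest folds. CH25H, cholesterol 25-hydroxylase, an interferon-induced enzyme whose product restrains virus entry, had 17.3, 10.6, 26.1 and 12.2 TPM in BS lungs, against 2.57, 1.97, 4.99 and 1.09 TPM in DSE lungs (log2 fold change 2.29 ± 0.36 (SE), limma adjusted p = 0.00354). RND1, a small GTPase that loosens the cytoskeleton, had 27.5, 95.6, 31.2 and 59.8 TPM in BS lungs, against 7.75, 11.3, 5.03 and 8.14 TPM in DSE lungs (log2 fold change 2.46 ± 0.39 (SE), limma adjusted p = 0.00362). The groups did not overlap in either gene. Of 37 interferon response genes tested, 1 rose and 1 fell, where 2.69% of all genes tested rose and 6.36% fell. Under median-ratio scaling 4 of the 37 rose and 1 fell. ISG15, a ubiquitin-like interferon target, had 156, 151, 301 and 66.7 TPM in BS lungs, against 23.9, 29.2, 84 and 42.4 TPM in DSE lungs (log2 fold change 1.87 ± 0.49 (SE), limma adjusted p = 0.0167), with DSE3 above BS4. IFIT2, another interferon target, averaged 28.6 ± 12 TPM in BS lungs and 75.2 ± 17.7 TPM in DSE lungs (log2 fold change -1.43 ± 0.3 (SE), limma adjusted p = 0.00765).

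Clock and steroid-responsive genes were called in both directions, with fewer falls under median-ratio scaling. BHLHE40, a repressor of the circadian clock, had 70.1, 87.5, 64.8 and 93.6 TPM in BS lungs, against 22.5, 20.1, 23.9 and 17.4 TPM in DSE lungs (log2 fold change 1.86 ± 0.15 (SE), limma adjusted p = 0.000829), with each BS lung at least at 64.8 TPM and each DSE lung at 23.9 TPM or less. CLOCK, a partner in the activating clock dimer, had 7.15, 3.23, 5.91 and 12.6 TPM in BS lungs, against 21, 16, 17.8 and 15.7 TPM in DSE lungs (log2 fold change -1.3 ± 0.31 (SE), limma adjusted p = 0.0123). PER1, a clock gene that glucocorticoids induce directly, averaged 99.1 ± 17.7 TPM in BS lungs and 46.8 ± 24.8 TPM in DSE lungs (log2 1.19), and its call was lost without BS3, DSE1 or DSE4 (log2 fold change 0.96 to 1.08, adjusted p 0.0432 to 0.0532). RORA, named after its values were seen, fell (log2 -1.1) and lost its call without BS1, BS2, BS3, DSE1 or DSE3 (log2 fold change -1.14 to -0.87, adjusted p 0.0567 to 0.0777). Of 21 clock genes 2 rose and 3 fell, and their median was 0.0086 above that of all genes. Under median-ratio scaling 3 rose and 1 fell. Of 16 glucocorticoid response genes 3 rose and 2 fell, and under median-ratio scaling 3 rose and none fell. CEBPD, a transcription factor of the acute stress response, had 423, 637, 473 and 462 TPM in BS lungs, against 196, 213, 315 and 188 TPM in DSE lungs (log2 fold change 1.14 ± 0.19 (SE), limma adjusted p = 0.00419), and ANGPTL4, an inhibitor of lipoprotein lipase, rose by log2 1.05 but lost its call without BS2, BS3, DSE1, DSE2, DSE3 or DSE4 (log2 fold change 0.71 to 1.2, adjusted p 0.0502 to 0.11). NR3C1, the glucocorticoid receptor, averaged 27.3 ± 8.3 TPM in BS lungs and 54.7 ± 8.51 TPM in DSE lungs and lost its call without BS2, DSE1 or DSE3 (log2 fold change -0.99 to -0.81, adjusted p 0.0112 to 0.0304). HSD11B1, which regenerates active glucocorticoid, averaged 149 ± 40.3 TPM in BS lungs and 308 ± 65.7 TPM in DSE lungs and lost its call without BS3, BS4 or DSE3 (log2 fold change -1.0 to -0.9, adjusted p 0.0107 to 0.0214). Times of day at sampling are not given in the labels.

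Cell cycle genes moved in 1 direction where called. Of 30 cell cycle genes 9 rose and none fell, with a median 0.84 above that of all genes. UBE2C, the ubiquitin-conjugating enzyme of the anaphase-promoting complex, had 55.2, 65.1, 26.2 and 26.6 TPM in BS lungs, against 12.4, 15.1, 14.5 and 12.2 TPM in DSE lungs (log2 fold change 1.49 ± 0.29 (SE), limma adjusted p = 0.00651). MCM2, a subunit of the replicative helicase, had 22.9, 17, 9.94 and 13.2 TPM in BS lungs, against 6.25, 7.23, 4.42 and 5.68 TPM in DSE lungs (log2 fold change 1.24 ± 0.24 (SE), limma adjusted p = 0.00656). PLK1, a mitotic kinase, averaged 9.8 ± 3.38 TPM in BS lungs and 3.52 ± 0.826 TPM in DSE lungs (SD, n = 4 each; log2 1.22), and MCM5, another helicase subunit, averaged 20.3 ± 4.47 TPM in BS lungs and 8.78 ± 0.436 TPM in DSE lungs (log2 1.1). In each of these the BS lungs lay above the DSE lungs, with BS1 and BS2 highest, and without BS1 the call of MCM5 was lost (log2 fold change 0.99, adjusted p 0.0109). E2F1, the factor that switches on S phase genes, rose by log2 1.59. CDC20, CCNB2, KIF20A and RRM2 rose by log2 1.13, 1.05, 1.04 and 1.0, and each lost its call without 4 or 5 of the 8 libraries in turn. The calls of CDC20 were lost without BS1, BS2, DSE1, DSE3 or DSE4 (log2 fold change 0.95 to 1.21, adjusted p 0.0541 to 0.0847), of CCNB2 without BS1, BS2, DSE1 or DSE4 (log2 fold change 0.86 to 0.96, adjusted p 0.0515 to 0.0618), of KIF20A without BS1, BS2, DSE1 or DSE4 (log2 fold change 0.83 to 0.99, adjusted p 0.0472 to 0.0544) and of RRM2 without BS1, BS2, BS4, DSE1 or DSE4 (log2 fold change 0.89 to 0.97, adjusted p 0.0273 to 0.0481). The count of members that rose was 10 without BS4 and 9 without DSE2.

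Histone genes, a family set apart after its values were seen, also moved in 1 direction past the 2-fold limit. Of 20 genes with a histone symbol that were tested, 10 rose and none fell, and their median log2 fold change was 1.17. H2AC6, a replication-dependent H2A gene, had 82.4, 41.6, 179.7 and 222 TPM in BS lungs, against 2.8, 3.68, 3.99 and 2.15 TPM in DSE lungs (log2 fold change 4.74 ± 0.47 (SE), limma adjusted p = 0.00132). H2AC25 had 24.2, 14.6, 83.5 and 76.7 TPM in BS lungs, against 2.41, 0.848, 1.5 and 2.56 TPM in DSE lungs (log2 fold change 3.87 ± 0.53 (SE), limma adjusted p = 0.00264). The linker histone H1-3 averaged 89 ± 56.3 TPM in BS lungs and 18.3 ± 3.97 TPM in DSE lungs (SD, n = 4 each; log2 2.03). Members outside the replication-dependent group split: H2AX, marked at DNA breaks, rose by log2 1.72 and H1-10 by log2 1.26, while H2AZ1 (log2 -0.01, adjusted p = 0.967) did not pass. H3-3A (log2 -0.41) and H2AZ2 (log2 -0.64) were below in every BS lung but short of 2-fold. Many H2A and H2B genes are near-identical copies whose reads the quantification may have divided, and their mRNAs mostly lack the poly(A) tail.

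**Figure D2:**
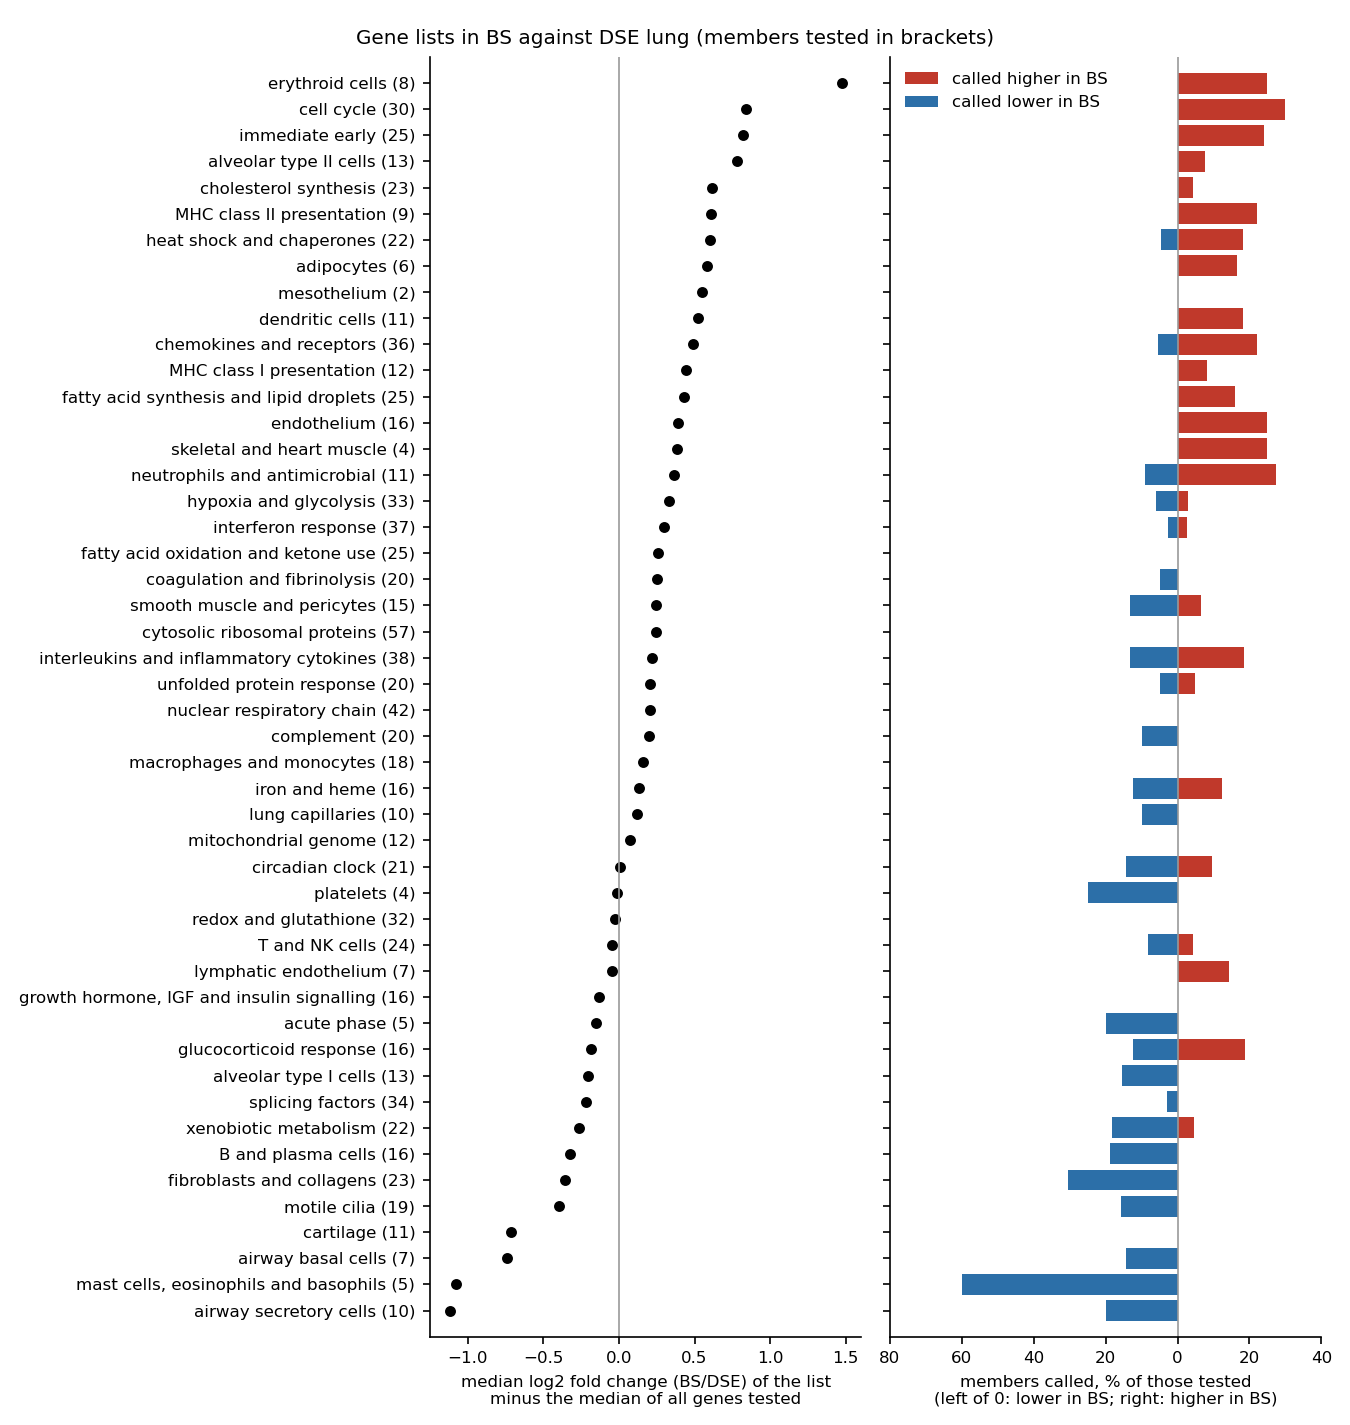
The 48 gene lists, with the number of members tested in brackets. Left, the median log2 fold change of a list in BS over DSE lung minus the median of all genes tested. Right, the share of members tested that were called, higher in BS to the right of 0 and lower in BS to the left. Erythroid, cell cycle and immediate early genes lie highest, and airway secretory genes and mast cell, eosinophil and basophil genes lie lowest.

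Some lipid synthesis genes were higher in BS lung, and the mitochondrial lists held no call. Surfactant is mostly lipid, and type II cells make fatty acids for it. FASN, fatty acid synthase, had 134, 130.3, 102 and 97.4 TPM in BS lungs, against 47.3, 41.7, 50.4 and 33.6 TPM in DSE lungs (log2 fold change 1.41 ± 0.16 (SE), limma adjusted p = 0.00169). AGPAT2, an acyltransferase on the way to phospholipid and triglyceride, had 79.6, 109.7, 66.8 and 41.9 TPM in BS lungs, against 26.5, 23, 26.1 and 37.2 TPM in DSE lungs (log2 fold change 1.31 ± 0.27 (SE), limma adjusted p = 0.0077). BS and DSE lungs did not overlap in either. SREBF1, the transcription factor that drives lipid synthesis, averaged 28.5 ± 2.39 TPM in BS lungs and 13.5 ± 1.38 TPM in DSE lungs, and PNPLA2, a triglyceride lipase, averaged 83.3 ± 1.86 TPM in BS lungs and 40.8 ± 4.32 TPM in DSE lungs (SD, n = 4 each). Both lay close to the 2-fold limit: SREBF1 lost its call without BS1, BS2, DSE1 or DSE3 (log2 fold change 0.99 to 1.0, adjusted p 0.00393 to 0.00832) and PNPLA2 without DSE2 (log2 fold change 0.94, adjusted p 0.00411). Of 25 genes of fatty acid synthesis and lipid droplets those 4 rose and none fell. Of 23 cholesterol synthesis genes 1 rose, MVD, a decarboxylase of the mevalonate pathway, at 32.1, 25.3, 35.5 and 24.2 TPM in BS lungs, against 10.4, 14.4, 9.12 and 12 TPM in DSE lungs (log2 fold change 1.28 ± 0.18 (SE), limma adjusted p = 0.00264). At any fold, 10 of the 23 were higher at an adjusted p under 0.05 and none lower, where 14.3% of all genes tested were higher by that limit, and the median was 0.62 above that of all genes. Without DSE2 4 of the 23 rose, and under median-ratio scaling 6.

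No member was called among 25 fatty acid oxidation genes, 42 nuclear respiratory chain genes, 12 mitochondrial genome genes, 32 redox and glutathione genes or 57 cytosolic ribosomal protein genes. COX4I1, a respiratory chain subunit, averaged 765 ± 103 TPM in BS lungs and 524 ± 50.8 TPM in DSE lungs (log2 0.54), the mitochondrially coded COX3 averaged 13788 ± 1155 TPM in BS lungs and 12272 ± 684 TPM in DSE lungs (log2 0.17), and RPLP1, a ribosomal stalk protein, averaged 7008 ± 594 TPM in BS lungs and 4479 ± 340.1 TPM in DSE lungs (log2 0.64). GPX1, glutathione peroxidase 1, averaged 1193 ± 95.1 TPM in BS lungs and 816 ± 85.8 TPM in DSE lungs (log2 0.55; SD, n = 4 each in all). Under median-ratio scaling 1 gene each of the ribosomal, respiratory chain and redox lists rose.

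Of 33 hypoxia and glycolysis genes 1 rose and 2 fell, near the shares of all genes tested (2.69% and 6.36%). PFKL, phosphofructokinase, averaged 81.7 ± 16.3 TPM in BS lungs and 38.1 ± 1.88 TPM in DSE lungs. PDK1, which blocks pyruvate entry into mitochondria, averaged 8.89 ± 2.22 TPM in BS lungs and 19.3 ± 2.3 TPM in DSE lungs. EGLN3, an oxygen-sensing prolyl hydroxylase, averaged 4.17 ± 2.09 TPM in BS lungs and 8.98 ± 0.794 TPM in DSE lungs. Each was near the 2-fold limit. PFKL lost its call without BS2 (log2 fold change 0.96, adjusted p 0.0057), PDK1 without BS2 or DSE2 (log2 fold change -1.0 to -0.9, adjusted p 0.00608 to 0.0144) and EGLN3 without BS1, BS2, BS3 or DSE2 (log2 fold change -1.0 to -0.89, adjusted p 0.026 to 0.036).

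Iron handling genes included 1 of the largest falls. SLC40A1, ferroportin, the iron exporter of cells, had 32.9, 17.1, 14.4 and 39 TPM in BS lungs, against 132, 107, 155 and 147 TPM in DSE lungs (log2 fold change -2.44 ± 0.3 (SE), limma adjusted p = 0.00207). SLC11A1, a divalent metal transporter of phagosomes known as NRAMP1, had 59.3, 57.7, 54.1 and 65.4 TPM in BS lungs, against 12.2, 19.4, 9.57 and 32.2 TPM in DSE lungs (log2 fold change 1.77 ± 0.31 (SE), limma adjusted p = 0.00475). The groups did not overlap in either gene. BLVRB, biliverdin reductase B, averaged 76 ± 25.6 TPM in BS lungs and 33 ± 3.34 TPM in DSE lungs and lost its call without BS1 (log2 fold change 0.94, adjusted p 0.0158). TF, transferrin, averaged 16.9 ± 5.69 TPM in BS lungs and 42.2 ± 25.5 TPM in DSE lungs and lost its call without BS1, BS2, BS3, DSE1, DSE2 or DSE4 (log2 fold change -1.26 to -0.8, adjusted p 0.0555 to 0.102). The 16 iron and heme genes thus counted 2 higher and 2 lower. Of 8 erythroid genes tested 2 rose. HBM, hemoglobin mu, had 122, 64.5, 119.8 and 209 TPM in BS lungs, against 9.33, 10.2, 22 and 8.95 TPM in DSE lungs (log2 fold change 3.23 ± 0.37 (SE), limma adjusted p = 0.00176), and SLC4A1, the band 3 anion exchanger, had 5.25, 4.12, 0.641 and 2.41 TPM in BS lungs, against 0.194, 0.161, 0.296 and 0.156 TPM in DSE lungs (log2 fold change 1.61 ± 0.38 (SE), limma adjusted p = 0.0118). HBB, adult beta globin, overlapped between groups at 3545, 1729.5, 4653 and 13295 TPM in BS lungs, against 1339, 1823, 2629.6 and 1032 TPM in DSE lungs (adjusted p = 0.0625). The summed TPM of the erythroid list was 1858 to 13809 in BS lungs and 1097 to 2744 in DSE lungs. The part of red cells in the iron genes was not tested.

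Xenobiotic metabolism genes gave counts that changed without DSE2. Of 22 tested, 1 rose and 4 fell, whereas without DSE2 1 rose and 1 fell. CYP2C42, a cytochrome P450 of a family with close copies, had 0.405, 0.492, 0.666 and 0.729 TPM in BS lungs, against 2.69, 5.26, 2.82 and 1.5 TPM in DSE lungs (log2 fold change -1.3 ± 0.27 (SE), limma adjusted p = 0.0077). ALDH1A1, a retinaldehyde dehydrogenase, averaged 379.6 ± 107 TPM in BS lungs and 931 ± 463 TPM in DSE lungs and lost its call without DSE2 (log2 fold change -0.92, adjusted p 0.0172). AHR, the aryl hydrocarbon receptor, fell (log2 -1.03) and lost its call without BS1, BS2, BS3, DSE1, DSE2, DSE3 or DSE4 (log2 fold change -1.13 to -0.79, adjusted p 0.0502 to 0.0929). CYP2S1 averaged 11.2 ± 3.53 TPM in BS lungs and 4.46 ± 0.714 TPM in DSE lungs (SD, n = 4 each), rose, and lost its call without BS2 (log2 fold change 0.99, adjusted p 0.0122). In the unfolded protein response, 1 of 20 genes rose and 1 fell, against 3 and none under median-ratio scaling: SEL1L, an adaptor of the degradation of misfolded proteins, averaged 33 ± 9.31 TPM in BS lungs and 72.9 ± 8.55 TPM in DSE lungs (log2 -1.15), and CHAC1, a glutathione-degrading enzyme, averaged 3.1 ± 2.68 TPM in BS lungs and 0.447 ± 0.123 TPM in DSE lungs and lost its call without BS1, DSE1, DSE2, DSE3 or DSE4 (log2 fold change 0.91 to 1.36, adjusted p 0.037 to 0.0604). Splicing factors gave 1 call of 34, the kinase CLK1, lost without BS1, BS2, BS3, DSE1, DSE2 or DSE3 (log2 fold change -1.1 to -0.73, adjusted p 0.0589 to 0.0946), while 16 of the 34 were lower at any fold at an adjusted p under 0.05 and none higher, where 26.7% of all genes tested were lower by that limit. Of 16 growth hormone, IGF and insulin signalling genes none was called, and under median-ratio scaling 2 rose, with IGFBP7 at 661 ± 155 TPM in BS lungs and 350.01 ± 16.9 TPM in DSE lungs.

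Some airway epithelium genes were lower in BS lung, in counts that changed without DSE2. AGR2, a disulfide isomerase needed for mucin folding, had 3.72, 0.56, 0.979 and 0.545 TPM in BS lungs, against 11.8, 303, 9.14 and 32.5 TPM in DSE lungs (log2 fold change -3.96 ± 0.97 (SE), limma adjusted p = 0.0134). The groups did not overlap, and the log2 fold change stayed past both limits without DSE2. CYP2F1, a club cell cytochrome P450, averaged 0.236 ± 0.107 TPM in BS lungs and 5.77 ± 5.98 TPM in DSE lungs and lost its call without BS1, BS2, BS3, BS4, DSE2 or DSE4 (log2 fold change -1.98 to -1.39, adjusted p 0.0568 to 0.09). The 10 airway secretory genes tested had 2 lower and a median 1.12 below that of all genes, but 0.065 below it without DSE2. The summed TPM of the list was 11242 to 51098 in BS lungs and 9628 to 23419 in DSE lungs. SCGB1A1 of that list had 33553, 10314, 50093 and 35906 TPM in BS lungs, against 8564, 18052, 18384 and 17668 TPM in DSE lungs. It leaned higher (log2 0.91, limma adjusted p = 0.152), as did SCGB3A2 (log2 0.62, limma adjusted p = 0.326), and neither was called. GABRP, a GABA-A receptor subunit of airway epithelium, had 4.33, 1.65, 1.39 and 0.805 TPM in BS lungs, against 16, 21.9, 4.79 and 13.7 TPM in DSE lungs (log2 fold change -2.27 ± 0.46 (SE), limma adjusted p = 0.00688). CYP2A19, a porcine cytochrome P450, had 1.59, 0.225, 1.21 and 0.606 TPM in BS lungs, against 4.75, 117, 2.96 and 24.2 TPM in DSE lungs and lost its call without BS2, BS3 or DSE4 (log2 fold change -3.23 to -2.93, adjusted p 0.0531 to 0.0648). Of 19 motile cilia genes 3 fell and none rose. CCDC39, which sets the repeat length of the axoneme, had 5.12, 2.16, 7.84 and 8.64 TPM in BS lungs, against 15.2, 25.9, 19.7 and 12.7 TPM in DSE lungs (log2 fold change -1.56 ± 0.36 (SE), limma adjusted p = 0.0111). TMEM212 and TSPAN19, membrane proteins outside that list, had the same order. TMEM212 had 18.2, 2.03, 9.19 and 13.2 TPM in BS lungs, against 50.3, 87.6, 41.5 and 28.8 TPM in DSE lungs (log2 fold change -2.36 ± 0.55 (SE), limma adjusted p = 0.0116), and TSPAN19 had 0.531, 0.0832, 0.819 and 0.605 TPM in BS lungs, against 2.92, 20.1, 4.48 and 6.1 TPM in DSE lungs (log2 fold change -2.34 ± 0.47 (SE), limma adjusted p = 0.0067). RSPH1, a radial spoke protein, averaged 10.5 ± 3.6 TPM in BS lungs and 23.3 ± 10.9 TPM in DSE lungs and lost its call without BS2, BS4, DSE2 or DSE4 (log2 fold change -1.09 to -0.76, adjusted p 0.0497 to 0.0634), and DNAH5, an outer dynein arm heavy chain, averaged 2.71 ± 1.47 TPM in BS lungs and 6.3 ± 1.76 TPM in DSE lungs and lost its call without BS1, BS2, BS3, DSE1, DSE2, DSE3 or DSE4 (log2 fold change -1.22 to -0.69, adjusted p 0.0287 to 0.0992). BS2 was the lowest library in CCDC39, RSPH1 and DNAH5, and without DSE2 1 of the 19 fell. The summed TPM of the cilia list was 257 to 716 in BS lungs and 540.5 to 1113 in DSE lungs. FOXJ1 and CAPS of that list leaned higher in BS lung without a call (log2 0.59 and 0.23, limma adjusted p = 0.215 and 0.75). TP63, the factor of airway basal cells, averaged 0.592 ± 0.256 TPM in BS lungs and 3.08 ± 2.49 TPM in DSE lungs and lost its call without BS2, BS3 or DSE2 (log2 fold change -1.19 to -0.85, adjusted p 0.0186 to 0.0523). The share of airway in the pieces of lung taken was not measured in these files.

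Cartilage and mesothelium markers, which mark larger airways and the lung surface, gave no call. CHAD, a cartilage matrix protein, had 5.08, 3.5, 13.2 and 3.74 TPM in BS lungs, against 1.32, 58.2, 1.84 and 4.02 TPM in DSE lungs, and HAPLN1, a link protein, had 0.233, 0.899, 0.269 and 0.304 TPM in BS lungs, against 0.301, 18, 0.449 and 1.01 TPM in DSE lungs. DSE2 held the highest level of both. COL2A1, ACAN, MATN1, MATN3, COL9A3 and COL11A1, matrix proteins of cartilage, lay lower in every BS lung than in every DSE lung, an order that 25.7% of all genes tested had, and were under 1 TPM in all libraries except DSE2. The median of the 11 genes was 0.71 below that of all genes. Without DSE2 1 of the 11 was tested, and 2 fell with a pseudocount of 0.1 TPM and 5 in a fit to all 40 libraries of the 5 tissues. The summed TPM of 11 cartilage genes ran between 5.08 and 14.5 in BS lungs and between 4.07 and 152 in DSE lungs. UPK3B, a mesothelial surface protein, averaged 53.1 ± 7.55 TPM in BS lungs and 36.1 ± 7.36 TPM in DSE lungs (log2 0.55). The part of airway wall in the airway results was not tested.

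Few alveolar genes were called. Of 13 type II genes 1 rose: NAPSA, the protease that matures surfactant protein B, had 538, 786, 414 and 259.6 TPM in BS lungs, against 241, 167, 238 and 262 TPM in DSE lungs and lost its call without BS1, BS2, DSE1, DSE2 or DSE3 (log2 fold change 0.79 to 1.08, adjusted p 0.0465 to 0.065). Without BS4 4 of the 13 rose, and without DSE2 none. The median of the list was 0.78 above that of all genes, between 0.54 and 0.93 over the alternative settings. Of 13 type I genes 2 fell, and under median-ratio scaling none fell. At any fold at an adjusted p under 0.05, 3 were higher and 3 lower, where 14.3% of all genes tested were higher and 26.7% lower. The higher ones were AGER (log2 0.42, limma adjusted p = 0.0474), the water channel AQP5 (log2 0.74, limma adjusted p = 0.0112) and GPRC5A (log2 0.44, limma adjusted p = 0.0462). CAV1, the coat protein of caveolae and also a product of endothelium, averaged 686 ± 309.6 TPM in BS lungs and 1318 ± 61.9 TPM in DSE lungs (log2 -1.04) and lost its call without BS2 (log2 fold change -0.81, adjusted p 0.025). CLIC5 averaged 335 ± 151 TPM in BS lungs and 651 ± 149 TPM in DSE lungs and lost its call without BS1, BS2, BS3, DSE1 or DSE4 (log2 fold change -1.0 to -0.81, adjusted p 0.0469 to 0.0643). Without BS4 4 of the 13 fell.

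Some endothelial genes were higher in BS lung. ROBO4, a guidance receptor that keeps vessels tight, had 35.2, 29.6, 29.6 and 25.7 TPM in BS lungs, against 11.8, 10.4, 10.3 and 10.1 TPM in DSE lungs (log2 fold change 1.41 ± 0.12 (SE), limma adjusted p = 0.000919). EGFL7, a matrix protein secreted by endothelium, had 306, 313, 386 and 346 TPM in BS lungs, against 161, 127, 127 and 136 TPM in DSE lungs (log2 fold change 1.29 ± 0.12 (SE), limma adjusted p = 0.00113). The groups did not overlap in either. CLDN5, the endothelial claudin, averaged 294 ± 50.8 TPM in BS lungs and 137 ± 37.9 TPM in DSE lungs (SD, n = 4 each) and lost its call without DSE3 (log2 fold change 1.0, adjusted p 0.0171), and SOX18, an endothelial transcription factor, averaged 68 ± 29 TPM in BS lungs and 31.4 ± 10.6 TPM in DSE lungs and lost its call without BS2, BS3, DSE2 or DSE3 (log2 fold change 0.81 to 1.05, adjusted p 0.0459 to 0.0666). Of 16 general endothelial genes those 4 rose and none fell, with a median 0.39 above that of all genes. The transcription factor ERG (log2 -0.78, limma adjusted p = 0.00645), PLVAP of endothelial diaphragms (log2 -0.81, limma adjusted p = 0.0151) and the angiopoietin receptor TEK (log2 -0.81, limma adjusted p = 0.0422) were lower at under 2-fold. Without BS4 1 member fell, and without BS4 and DSE2 3 rose and 2 fell. Capillary genes did not follow: of 10 tested 1 fell, HPGD, the prostaglandin-degrading dehydrogenase, at 100.1, 105, 110.4 and 229.8 TPM in BS lungs, against 573, 339, 463 and 460.04 TPM in DSE lungs (log2 fold change -1.81 ± 0.27 (SE), limma adjusted p = 0.00331). Of 7 lymphatic genes the chemokine CCL21, given above, was the 1 called.

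Part of the fibroblast genes were lower in BS lung. Of 23 fibroblast and collagen genes 7 fell and none rose, with a median 0.36 below that of all genes. At any fold at an adjusted p under 0.05, 9 were lower and 1 higher, where 26.7% of all genes tested were lower and 14.3% higher. The higher one was COL6A1 (log2 0.61, limma adjusted p = 0.03), which lay above in every BS lung. PDGFRA, the PDGF receptor of fibroblasts, had 6.05, 5.11, 5.42 and 14.8 TPM in BS lungs, against 49.3, 24.4, 30.8 and 27.3 TPM in DSE lungs (log2 fold change -2.01 ± 0.33 (SE), limma adjusted p = 0.00408). LOX, lysyl oxidase, which cross-links collagen and elastin, had 7.07, 11.7, 9.3 and 19.6 TPM in BS lungs, against 43.3, 44.3, 44.5 and 38.9 TPM in DSE lungs (log2 fold change -1.85 ± 0.25 (SE), limma adjusted p = 0.00264). DCN, the collagen-binding proteoglycan decorin, had 150.3, 268, 184 and 369 TPM in BS lungs, against 494, 821, 493 and 560.4 TPM in DSE lungs (log2 fold change -1.34 ± 0.28 (SE), limma adjusted p = 0.00834). In each of these the BS lungs lay below the DSE lungs, BS4 being the highest of them. PI16, a marker of adventitial fibroblasts, averaged 23.7 ± 10.3 TPM in BS lungs and 73.5 ± 33.9 TPM in DSE lungs, and MFAP5, a microfibril protein, fell (log2 -1.75). LUM and COL14A1 fell (log2 -1.27 and -1.1), and lost their calls without BS1, BS3, DSE2, DSE3 or DSE4 (log2 fold change -1.35 to -0.84, adjusted p 0.0472 to 0.0918) and without BS1, BS3, DSE2 or DSE3 (log2 fold change -1.08 to -0.86, adjusted p 0.0523 to 0.0567), in that order. The count was 5 without DSE2 and 7 without BS4, and the summed TPM of the list was 1061 to 1977 in BS lungs and 1779 to 2662 in DSE lungs. ABCA9, a lipid transporter, had 3.45, 1.43, 2.57 and 14.7 TPM in BS lungs, against 27.1, 23.4, 26.4 and 20.5 TPM in DSE lungs (log2 fold change -2.34 ± 0.49 (SE), limma adjusted p = 0.00794), with BS4 well above the other BS lungs.

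Smooth muscle genes split by member. ACTG2, gamma enteric actin, averaged 122 ± 26.1 TPM in BS lungs and 329.7 ± 175 TPM in DSE lungs (log2 fold change -1.32 ± 0.32 (SE), limma adjusted p = 0.0134), and SYNPO2, an actin-bundling protein, averaged 12.6 ± 3.7 TPM in BS lungs and 30.1 ± 8.61 TPM in DSE lungs (log2 fold change -1.19 ± 0.23 (SE), limma adjusted p = 0.00635). HIGD1B, a pericyte marker, had 207, 249, 216 and 153 TPM in BS lungs, against 95.1, 52.6, 85.6 and 89 TPM in DSE lungs (log2 fold change 1.36 ± 0.21 (SE), limma adjusted p = 0.00354). Of 15 smooth muscle and pericyte genes 1 rose and 2 fell. CIDEC, a lipid droplet protein of adipocytes, averaged 63.8 ± 8.81 TPM in BS lungs and 30.7 ± 8.64 TPM in DSE lungs and lost its call without BS3, DSE2 or DSE3 (log2 fold change 0.91 to 1.0, adjusted p 0.0129 to 0.0184). NPPB, B-type natriuretic peptide, known from heart muscle, had 0.868, 5.24, 2.22 and 2.07 TPM in BS lungs, against 0, 0, 0.545 and 0.0719 TPM in DSE lungs (log2 fold change 1.53 ± 0.35 (SE), limma adjusted p = 0.0108), the only call among 4 muscle genes tested.

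Immune cell genes gave different counts by lineage. Part of the mast cell and basophil genes were lower: FCER1A, the alpha chain of the IgE receptor, had 6.08, 13.7, 8.14 and 12.9 TPM in BS lungs, against 38.4, 27, 20.5 and 33.1 TPM in DSE lungs (log2 fold change -1.48 ± 0.27 (SE), limma adjusted p = 0.00532), MS4A2, its beta chain, averaged 6.99 ± 1.05 TPM in BS lungs and 18.8 ± 4.04 TPM in DSE lungs (log2 -1.29), and HPGDS, prostaglandin D synthase of mast cells, averaged 0.412 ± 0.462 TPM in BS lungs and 2.57 ± 0.737 TPM in DSE lungs (log2 -1.37). These were 3 of 5 genes tested for mast cells, eosinophils and basophils, none of which rose past 2-fold. GATA2, a transcription factor of mast cells and other blood lineages, was higher in every BS lung than in every DSE lung (log2 0.69, limma adjusted p = 0.0128). Some B cell genes were lower too. MS4A1, the B cell antigen CD20, had 2.64, 1.51, 4.78 and 12.3 TPM in BS lungs, against 18.2, 22.2, 16.4 and 11.5 TPM in DSE lungs (log2 fold change -1.78 ± 0.46 (SE), limma adjusted p = 0.0164), and BANK1, a B cell scaffold protein, averaged 17.2 ± 5.83 TPM in BS lungs and 41.9 ± 9.83 TPM in DSE lungs (log2 fold change -1.25 ± 0.24 (SE), limma adjusted p = 0.00632). The lowest DSE lung in MS4A1, DSE4, was below the highest BS lung, BS4. JCHAIN, the joining chain of secreted IgA, had 317, 209.5, 987 and 1341 TPM in BS lungs, against 3792, 7446, 1534 and 948 TPM in DSE lungs and lost its call without BS1, BS2, BS3, DSE1, DSE2 or DSE3 (log2 fold change -2.5 to -1.69, adjusted p 0.052 to 0.104). Of 16 B and plasma cell genes 3 fell and none rose.

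Macrophage genes were not called in either direction in 18 genes tested. C1QC, a complement C1q chain of macrophages, averaged 1406 ± 256 TPM in BS lungs and 1401 ± 377 TPM in DSE lungs (log2 0.03), and LYZ, lysozyme, ran widely in both groups at 1123, 615, 230.03 and 126 TPM in BS lungs, against 1828, 1409, 279 and 4639.8 TPM in DSE lungs (adjusted p = 0.125). Neutrophil genes gave 3 higher and 1 lower of 11. S100A8, a calprotectin subunit, had 452, 814, 702 and 153 TPM in BS lungs, against 161, 100.3, 106 and 128 TPM in DSE lungs (log2 fold change 1.87 ± 0.47 (SE), limma adjusted p = 0.0145), with BS4 below DSE1. MMP9, gelatinase B, averaged 11.4 ± 7.03 TPM in BS lungs and 2.73 ± 1.17 TPM in DSE lungs and lost its call without DSE1 (log2 fold change 1.45, adjusted p 0.0513). S100A12 averaged 1624 ± 782 TPM in BS lungs and 735 ± 164 TPM in DSE lungs and lost its call without BS1, BS2, BS3, DSE1, DSE2, DSE3 or DSE4 (log2 fold change 0.75 to 1.15, adjusted p 0.0502 to 0.0997), and PGLYRP1, a peptidoglycan-binding protein, averaged 5.96 ± 2.14 TPM in BS lungs and 24.2 ± 24.9 TPM in DSE lungs and lost its call without BS1, BS2, BS3, BS4, DSE1, DSE2 or DSE3 (log2 fold change -1.71 to -0.92, adjusted p 0.0313 to 0.0921). Of 24 T and NK cell genes NKG7, a granule protein, rose (log2 1.09), and the receptor KLRK1 and the costimulator ICOS fell (log2 -1.14 and -1.12). Of all genes tested 2.69% rose and 6.36% fell. NKG7 lost its call without DSE2 (log2 fold change 1.0, adjusted p 0.00787), KLRK1 without BS2 (log2 fold change -0.95, adjusted p 0.0166) and ICOS without BS2 (log2 fold change -0.92, adjusted p 0.0167). TUBB1, the platelet tubulin, averaged 1.02 ± 0.637 TPM in BS lungs and 3.68 ± 0.835 TPM in DSE lungs (log2 fold change -1.25 ± 0.25 (SE), limma adjusted p = 0.00652), 1 of 4 platelet genes tested.

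Few antigen presentation genes were called, each of them higher. CD74, the invariant chain of MHC class II, had 867, 1291, 1080.1 and 689 TPM in BS lungs, against 312, 175, 423 and 293 TPM in DSE lungs (log2 fold change 1.73 ± 0.28 (SE), limma adjusted p = 0.00389). IFI30, the lysosomal thiol reductase that prepares antigen, averaged 361 ± 91.7 TPM in BS lungs and 152 ± 17.4 TPM in DSE lungs (log2 fold change 1.21 ± 0.18 (SE), limma adjusted p = 0.00334). PSMB10, an immunoproteasome subunit, averaged 118 ± 5.32 TPM in BS lungs and 55.8 ± 2.43 TPM in DSE lungs (log2 fold change 1.07 ± 0.09 (SE), limma adjusted p = 0.000829; SD, n = 4 each). The BS lungs lay above the DSE lungs in each of these, as 2 of 9 class II genes and 1 of 12 class I genes. At any fold at an adjusted p under 0.05, 3 class II genes were higher and 1 lower, and 4 class I genes were higher and none lower. By that limit 14.3% of all genes tested were higher and 26.7% lower. In 1 class II gene every BS lung lay below every DSE lung. Without BS4 and DSE2 2 class II genes rose and 1 fell. Of 11 dendritic cell genes 2 rose, CCL22 and CCL17, while 3 were higher and 1 lower at any fold at an adjusted p under 0.05. Complement genes gave 2 lower of 20 and coagulation genes 1 lower of 20, where 6.36% of all genes tested fell. C3AR1, the C3a receptor, had 18.6, 19.2, 19.4 and 39.7 TPM in BS lungs, against 98.1, 45.3, 97.1 and 74.8 TPM in DSE lungs (log2 fold change -1.68 ± 0.31 (SE), limma adjusted p = 0.00527), and CFI, complement factor I, averaged 28.2 ± 4.1 TPM in BS lungs and 62.4 ± 25.5 TPM in DSE lungs and lost its call without BS4 or DSE2 (log2 fold change -0.96 to -0.81, adjusted p 0.0114 to 0.0164). TFPI2, a protease inhibitor, averaged 41.2 ± 9.91 TPM in BS lungs and 93.5 ± 14.6 TPM in DSE lungs (log2 -1.18) as the 1 call among 20 coagulation genes, and LBP, which presents bacterial lipopolysaccharide, averaged 0.772 ± 0.416 TPM in BS lungs and 3.68 ± 3.0 TPM in DSE lungs as the 1 call among 5 acute phase genes, lost without BS1, BS2, BS3, BS4, DSE1, DSE2 or DSE3 (log2 fold change -1.34 to -0.84, adjusted p 0.0637 to 0.101).

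Several genes of large fold belonged to none of these lists. TMEM238, a small membrane protein, had 79.8, 122, 74 and 46.3 TPM in BS lungs, against 11.2, 14.5, 10.8 and 15.9 TPM in DSE lungs (log2 fold change 2.47 ± 0.27 (SE), limma adjusted p = 0.0016). ASPG, a lysophospholipase and asparaginase, had 9.5, 7.42, 5.37 and 1.76 TPM in BS lungs, against 0.252, 0.38, 0.114 and 0.379 TPM in DSE lungs (log2 fold change 2.3 ± 0.37 (SE), limma adjusted p = 0.00404). LNPEP, the insulin-regulated aminopeptidase, had 9.64, 4.15, 8.96 and 24.4 TPM in BS lungs, against 45.4, 47, 58.7 and 40.2 TPM in DSE lungs (log2 fold change -2.16 ± 0.41 (SE), limma adjusted p = 0.00563). The groups overlapped in none of these 3 genes. RAB1B, a GTPase of transport from the endoplasmic reticulum to the Golgi, had 28.4, 0.759, 28.8 and 53.2 TPM in BS lungs, against 121, 108, 109 and 107 TPM in DSE lungs, with BS2 far below all others, and lost its call without BS1, BS3, DSE1, DSE2, DSE3 or DSE4 (log2 fold change -2.99 to -2.68, adjusted p 0.0555 to 0.0839). A joint gene identifier overlaps it on the same strand.

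Of the genes that averaged 5 TPM or more in the other group, 10 were listed at 0 in all 4 DSE lungs and 11 in all 4 BS lungs. All 4 animals of the other group had a value in 3 of the 10 and 1 of the 11. The 10 include Y chromosome genes of BS4, such as EIF1AY (75.4 TPM), and ENSSSCG00000034846 of BS3 alone (120 TPM). The 11 include genes held mainly by DSE2, such as ENSSSCG00000035964 (1002 TPM) and PHEROC (203 TPM). These 2 counts were not repeated without BS4 or DSE2. NCBP2AS2, a small gene opposite the cap-binding gene NCBP2, had 15, 21.2, 8.91 and 5.68 TPM in BS lungs and was listed at 0 in all 4 DSE lungs. In heart it averaged 8.57 TPM in BS and was listed at 0 in DSE, while in kidney it averaged 23.6 TPM in BS and 7.97 TPM in DSE. ENSSSCG00000037986 (chromosome 6, 53080236 to 53080657), which overlaps CCDC9 on the same strand, had 21.4, 20.3, 37.1 and 30.2 TPM in BS lungs and was listed at 0 in all 4 DSE lungs, and was listed at 0 in all 20 DSE libraries of the 5 tissues. PET117, a chaperone gene of cytochrome oxidase assembly that overlaps KAT14 on the same strand, was listed at 0 in all 4 BS lungs, against 11, 5.53, 10.9 and 9.09 TPM in DSE lungs. These were, with ENSSSCG00000060961 (given below), the genes in which all 4 animals of the other group had a value. An exact 0 of a quantifier at an overlapping locus can be a failed assignment of reads, so no fold is given. Several small RNAs behaved alike: the Y RNA gene of chromosome 9, 109287974 to 109288086 had 2.36, 1.82, 0 and 0 TPM in BS lungs, against 55.4, 84.9, 4.82 and 50.7 TPM in DSE lungs (log2 fold change -4.31 ± 0.82 (SE), limma adjusted p = 0.00578), with DSE3 near the BS lungs, and such genes exist in many similar copies.

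The differences in lung were mostly shared in direction by the other tissues of the same animals, which share the animals but not the libraries. Of the genes higher in BS lung and tested elsewhere, 344 of 366 (94%) were also higher in spleen, 287 of 304 (94.4%) in liver, 309 of 320 (96.6%) in kidney and 275 of 285 (96.5%) in heart. Of all genes tested there, 41.1% were higher in BS spleen, 52.7% in BS liver, 48.6% in BS kidney and 52.3% in BS heart. Of the genes lower in BS lung, 773 of 820 (94.3%) were lower in spleen, 613 of 708 (86.6%) in liver, 744 of 800 (93%) in kidney and 686 of 746 (92%) in heart, against 58.9%, 47.3%, 51.4% and 47.7% of all genes in that order of tissues. Calls were fewer. Of the lung-higher genes 23.8% were called higher in spleen, 32.6% in liver, 42.2% in kidney and 36.8% in heart, where 1.42%, 2.72%, 3.09% and 2.17% of all genes were. Of the lung-lower genes 8.54% were called lower in spleen, 2.4% in liver, 9.12% in kidney and 2.68% in heart, where 1.56%, 0.642%, 1.39% and 0.415% of all genes were.

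Lung differences larger or smaller than in the other tissues were tested by taking, for each animal, lung minus the mean of its 4 other tissues. Of 15025 genes, 21 (0.14%) differed between BS and DSE animals in that quantity, 6 upward and 15 downward, and 3061 had an unadjusted p under 0.05. The count was 0 without BS1 or without DSE1, 1 without DSE3 or without DSE4, 5 without BS3 and 178 without BS4, where all 21 genes were called again. CCL22 differed by log2 1.98 ± 0.23 (SE), limma adjusted p = 0.0344, its difference being log2 2.11 in lung and log2 0.35 in heart, -0.01 in kidney, 0.07 in liver and 0.12 in spleen. BHLHE40 differed by log2 1.64 ± 0.2 (SE), limma adjusted p = 0.037, with differences of log2 0.33 in heart, 0.31 in kidney, 0.2 in liver and 0.02 in spleen. In both, the BS minus DSE difference was largest in lung. The level of BHLHE40 was not: it averaged 79.0 TPM in BS lung and 21.0 TPM in DSE lung, against 76.2 TPM in BS kidney and 59.4 TPM in DSE kidney. CRTAC1, a cartilage acidic protein also known from type II cells, had 0.128, 0.577, 0.0765 and 0.151 TPM in BS lungs, against 6.44, 3.72, 9.36 and 4.55 TPM in DSE lungs. Its lung difference against the other tissues was log2 -2.76 ± 0.26 (SE), limma adjusted p = 0.0246, and in kidney it was higher in BS by log2 1.08. FAM13C had 3.78, 2.52, 4.19 and 4.02 TPM in BS lungs, against 19.7, 21, 21.2 and 14.4 TPM in DSE lungs, and differed by log2 -1.78 ± 0.19 (SE), limma adjusted p = 0.0246. CCN5, a matricellular protein, had 0.759, 0.874, 2.31 and 1.52 TPM in BS lungs, against 5.1, 6.51, 5.6 and 3.74 TPM in DSE lungs, differed by log2 -1.73 ± 0.24 (SE), limma adjusted p = 0.0372, and was higher in BS kidney by log2 1.09. Of 12 alternative settings, the call of CRTAC1 held in 8, those of CCL22, BHLHE40 and FAM13C in 6 each and that of CCN5 in 2.

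AREG, amphiregulin, an EGF receptor ligand, had 4.53, 3.38, 2.19 and 3.15 TPM in BS lungs, against 0.408, 1.15, 0.476 and 0.534 TPM in DSE lungs and differed by log2 1.28 ± 0.19 (SE), limma adjusted p = 0.0499. IL17RD, P2RY12, MEDAG, KBTBD7 and TUBB1 differed downward, by log2 -1.16, -1.22, -1.59, -1.13 and -1.61. Of these, P2RY12, the ADP receptor of platelets and tissue macrophages, had 4.81, 4.96, 3.66 and 4.12 TPM in BS lungs, against 12.5, 10.7, 14.7 and 14.7 TPM in DSE lungs. Among genes without a symbol, 3 genes close to each other on chromosome 7 were higher in BS lung. ENSSSCG00000060961 (20904846 to 20905256) had 8.7, 7.19, 14.2 and 15.3 TPM in BS lungs and was listed at 0 in all 4 DSE lungs, ENSSSCG00000056711 (20907099 to 20908327) had 10.2, 4.33, 9.51 and 5.15 TPM in BS lungs, against 0.718, 0.607, 0.824 and 0.378 TPM in DSE lungs, and ENSSSCG00000037565 (20735561 to 20744356) had 7.73, 4.03, 7.81 and 9.2 TPM in BS lungs, against 0.67, 1.26, 0.256 and 0.505 TPM in DSE lungs. Their lung differences against the other tissues were log2 2.02, 1.87 and 1.92. ENSSSCG00000051569 (chromosome 14, 132468306 to 132479408) had 0.395, 0.106, 0.483 and 0 TPM in BS lungs, against 12.1, 2.75, 10.2 and 15.5 TPM in DSE lungs, was listed at 0 in all other tissues and differed by -2.99. ENSSSCG00000013788 and ENSSSCG00000039706 differed by -2.47 and -1.74.

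**Figure D3:**
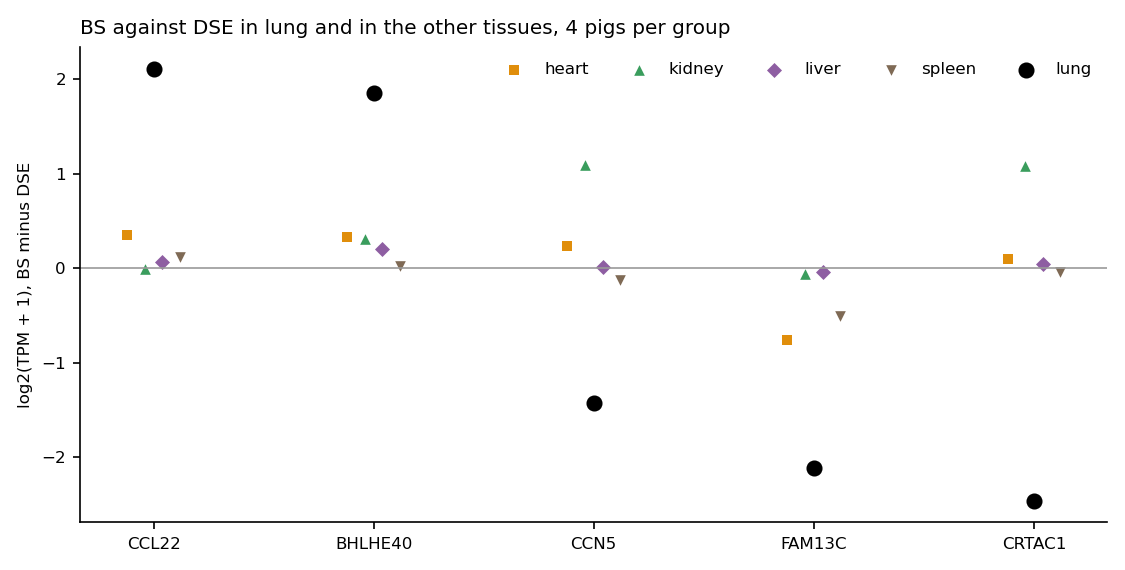
Difference between the BS and DSE means of log2(TPM + 1) in lung (circles) and in heart, kidney, liver and spleen (other symbols) for the named genes with a symbol that differed between lung and the other tissues, 4 pigs per group. The differences of CCL22 and BHLHE40 are largest in lung, and those of CRTAC1, FAM13C and CCN5 are lowest in lung, with CRTAC1 and CCN5 above 0 in kidney.

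The direction of the difference followed the length of the gene in the genome. Among 2191 genes that span under 5 kb, 8.22% rose and 3.15% fell. Among 2332 genes that span 100 kb or more, 0.214% rose and 13.1% fell. Genes that rose had a median span of 6200 bases, genes that fell 56310 bases, and the rest 23691 bases. Across 15010 genes the Spearman correlation of span with log2 fold change was -0.351, and it was -0.301 in spleen, -0.299 in liver, -0.345 in kidney and -0.34 in heart, as a description of genes that share libraries. Genes under 5 kb took 36.0 ± 1.70% of TPM in BS lungs and 32.5 ± 1.93% in DSE lungs (SD, n = 4 each, exact permutation p = 0.0857). Genes of 50 kb or more took 12.9 ± 1.69% in BS lungs and 16.4 ± 1.09% in DSE lungs (exact permutation p = 0.0571). Of the genes named, GADD45G and JUNB span under 5 kb, and PDGFRA, LNPEP and FAM13C over 50 kb. The part of gene span in the gene differences was not tested.

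**Figure D4:**
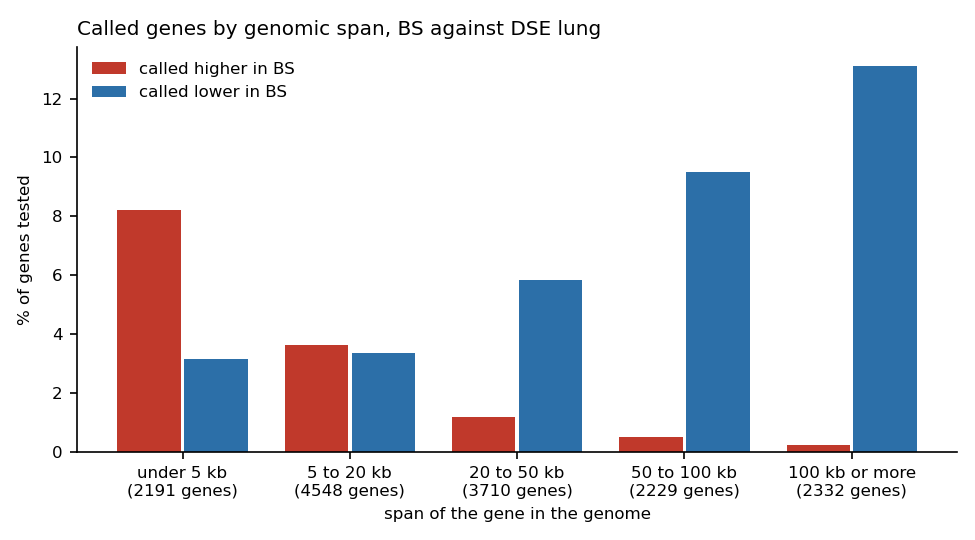
Share of genes tested that were called higher (left bar) and lower (right bar) in BS lung, by the span of the gene in the genome, with the number of genes in brackets. The share called higher is 8.22% under 5 kb and 0.214% at 100 kb or more, and the share called lower is 3.15% and 13.1%.

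Transcript usage, the share of a gene's TPM held by 1 transcript, was tested for 22863 transcripts of 8552 genes. Of these transcripts 1354 (5.92%) shifted by at least 20 percentage points at a limma adjusted p under 0.05, 696 (3.04%) upward and 658 (2.88%) downward, in 905 genes. The count was 2252 without BS4 and 800 without DSE1. In 441 genes 1 transcript rose and another fell, and the transcript that rose in BS lung was the shorter of the pair in 348 genes and the longer in 93. It had fewer exons in 232, more in 80 and the same number in 129. The median lengths were 3134 bases for the forms that rose and 3609 bases for those that fell. Genes with shifted usage had a level call in 9.39%, against 8.06% of all genes tested for usage.

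**Figure D5:**
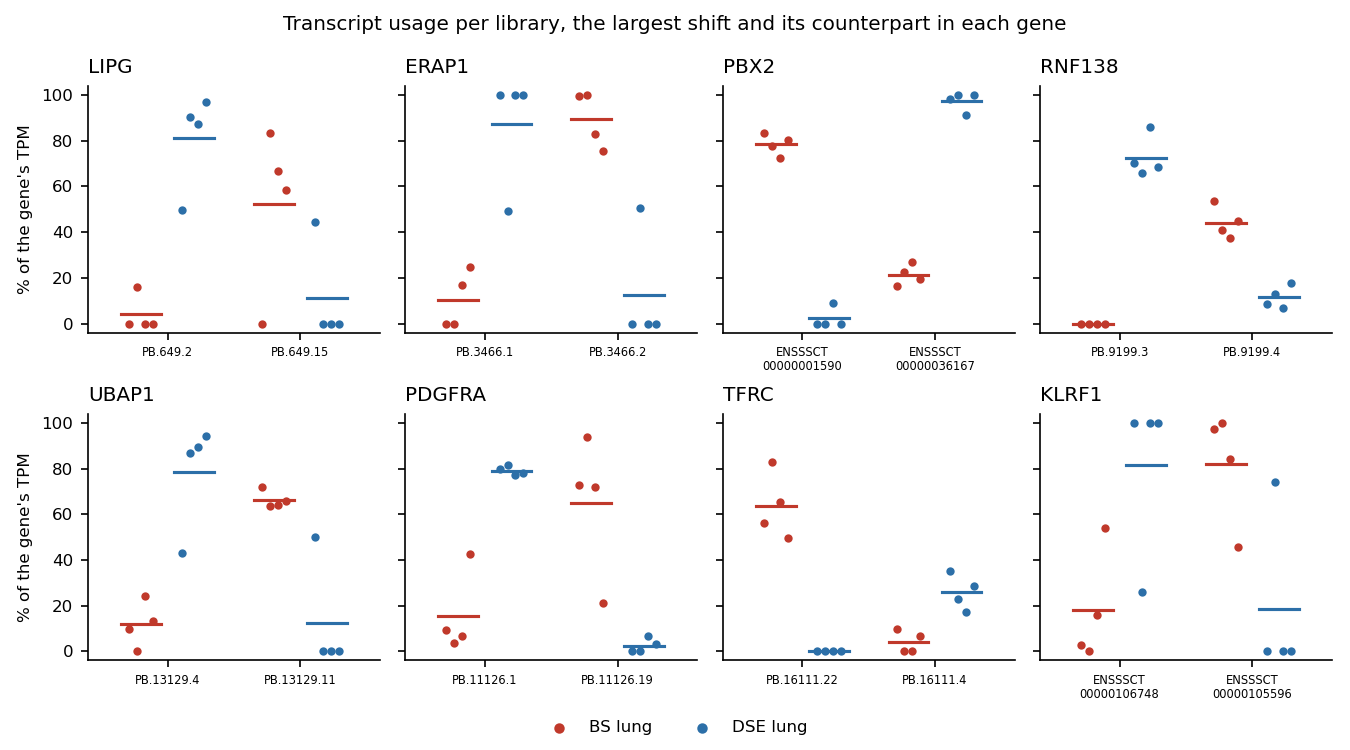
Usage, in percent of the gene's TPM, of the transcript with the largest shift and its largest counterpart in the 8 genes with the largest shifts. Points are libraries, BS lungs left and DSE lungs right, and bars are means. PBX2 exchanged a pair of forms with no overlap between groups, and RNF138 held PB.9199.3 in DSE lungs alone.

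PBX2, a homeobox partner of HOX proteins, exchanged a pair of annotated transcripts. ENSSSCT00000001590 (11 exons, 2768 bases) held 83.6, 77.6, 72.4 and 80.3% in BS lungs, against 0, 0, 8.86 and 0% in DSE lungs (shift 76.2 points, limma adjusted p = 0.000544). ENSSSCT00000036167 (10 exons, 3184 bases) held 16.4, 22.4, 27.1 and 19.7% in BS lungs, against 98.2, 100, 91.1 and 100% in DSE lungs. Their coding sequences are 1110 and 1290 bases long. RNF138, a ubiquitin ligase of DNA break repair, used PB.9199.3 for 0% in all 4 BS lungs, against 70.2, 66, 86 and 68.3% in DSE lungs (shift -72.6 points, limma adjusted p = 0.000115), while PB.9199.4 held 53.6, 40.8, 37.3 and 45% in BS lungs, against 8.52, 12.9, 6.69 and 17.8% in DSE lungs (shift 32.7 points, limma adjusted p = 0.00413). Both forms have 8 exons and a coding sequence of 738 bases. PDGFRA, lower in level in BS lung, also shifted form: PB.11126.1 (6509 bases) held 9.22, 3.56, 6.7 and 42.5% in BS lungs, against 79.6, 81.5, 77.3 and 77.9% in DSE lungs (shift -63.6 points, limma adjusted p = 0.00338), and PB.11126.19 (5950 bases), which starts further in, held 72.8, 93.7, 71.9 and 21.2% in BS lungs, against 0, 0, 6.72 and 3.05% in DSE lungs (shift 62.4 points, limma adjusted p = 0.00932). BS4 was nearer the DSE lungs than the other BS lungs in both.

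TFRC, the transferrin receptor, used PB.16111.22 for 56, 82.9, 65.3 and 49.4% in BS lungs, against 0% in all 4 DSE lungs (shift 63.4 points, limma adjusted p = 0.000172). Its counterpart PB.16111.4 fell by 21.9 points, a call lost without DSE1, DSE2 or DSE4 (adjusted p 0.0521 to 0.0657). LIPG, endothelial lipase, used PB.649.2 for 0, 16.1, 0 and 0% in BS lungs, against 49.7, 90.4, 87.6 and 96.8% in DSE lungs (shift -77.1 points, limma adjusted p = 0.00789). UBAP1, an endosomal sorting protein, used PB.13129.4 for 9.89, 0, 24.4 and 13% in BS lungs, against 43.2, 86.9, 89.6 and 94.2% in DSE lungs (shift -66.7 points, limma adjusted p = 0.0172). In both genes DSE1 lay between the groups. ERAP1, the aminopeptidase that trims peptides for MHC class I, exchanged PB.3466.1 for PB.3466.2, which held 99.7, 100, 82.9 and 75.4% in BS lungs, against 0, 50.7, 0 and 0% in DSE lungs (shift 76.9 points, limma adjusted p = 0.0136). These forms have the same 19 exons and coding length of 2103 bases, and are 4496 and 4479 bases long. With ends that differ by so little, few reads can tell the forms apart. KLRF1, an NK cell receptor, moved by 63.3 points with overlapping groups, and its calls were lost without BS1, BS2, BS3, DSE1 or DSE4 (adjusted p 0.0959 to 0.119).

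Long-read libraries, 1 per group of pigs and with no replicate check, held 204718 full-length reads in BS lung and 208658 in DSE lung. Of 2990 genes with at least 20 reads over both, 14.2% were at least 2-fold higher and 10.9% at least 2-fold lower in BS lung. Among 35 genes called higher by short reads, 15 (42.9%) were at least 2-fold higher and none 2-fold lower. Among 213 genes called lower, 44 (20.7%) were at least 2-fold lower and 22 (10.3%) higher. BHLHE40 had 106 reads in BS lung (95% exact Poisson interval 86.8 to 128) and 7 in DSE lung (2.81 to 14.4). GADD45G had 8 reads (3.45 to 15.8) in BS lung and 1 (0.0253 to 5.57) in DSE lung. ABCA9 had 5 (1.62 to 11.7) in BS lung and 19 (11.4 to 29.7) in DSE lung. LNPEP, lower by short reads, had 25 (16.2 to 36.9) in BS lung and 15 (8.40 to 24.7) in DSE lung. SLC40A1, also lower by short reads, had no read in either. CYP2A19 had 2 in BS lung and none in DSE lung, HSP70.2 had 1 and none, and FAM13C had 2 and 5. LIPG form PB.649.2, which BS lungs hardly used by short reads, had 21 full-length reads in BS lung and 22 in DSE lung, and its counterpart PB.649.15 had none in either. UBAP1 form PB.13129.4 had 30 in BS lung and 19 in DSE lung, and its counterpart none. PDGFRA form PB.11126.1 had 12 in BS lung and 19 in DSE lung, and PB.11126.19, which most BS lungs used by short reads, had none. TFRC form PB.16111.22, the main form of BS lungs by short reads, had none in either group, while PB.16111.4 had 66 in BS lung and 46 in DSE lung. Neither RNF138 form had a read. ERAP1 form PB.3466.2 had 2 in BS lung and none in DSE lung, and PB.3466.1 had none in BS lung and 3 in DSE lung. These intervals cover counting error only.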

How the data were processed

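Gene and transcript levels are TPM values deposited by the authors for 60 labelled short-read samples, and full-length read counts per transcript were deposited by the authors for the long-read libraries. Per the labels' protocols, total RNA was extracted with Trizol and acid phenol, and rRNA was depleted for short reads only. The submitters' processing notes name STAR 2.7.10a, Salmon 1.10.1 and the build susScr11, and the header of the annotation names rtracklayer 1.58.0. How transcripts were matched to strands is not given in the sources used here, so overlapping genes on opposite strands cannot be told apart. Depth cannot be read from TPM. The columns of the third pig group match no label: 20 gene, 20 transcript and 5 long-read columns were not used, and its labelled samples are not analysed here. The short- and long-read values were never compared in level.

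BS lung was compared with DSE lung by limma 3.58.1 (R 4.3.3), with trend, on log2(TPM + 1) of the 8 lung libraries, over genes that averaged 1 TPM or more in BS or DSE lungs, with Benjamini-Hochberg adjustment over all of them. A call needed an adjusted p under 0.05 and at least 2-fold. Usage was tested by limma on log2 of a transcript's TPM + 0.5 over the gene's other TPM + 0.5, in genes of at least 5 TPM in both groups and for transcripts of at least 5% usage, with a call at 20 points. Lung was set against the other 4 tissues by the same fit on each animal's difference. Library measures were tested by exact two-sided permutation over 70 arrangements. The gene fit and the fit used on tissue differences were tested on values simulated from lung. The usage fit was tested on simulated pairs of transcripts. The alternative models were not tested in this way.

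The members and the 48 gene lists were chosen with earlier results of these data known. Named were the 12 genes of largest fold in each direction without group overlap and with a symbol and at least 5 TPM, leaving out histones, mitochondrial genes and immune receptor segments; up to 4 called members of each list by lowest adjusted p; 8 genes by usage shift; and 6 in each direction by the lung difference against other tissues. 1 gene that this rule chose is not reported here. Others were named after their values were seen: further called members of the lists, values of uncalled markers, the histones and genes listed at 0. Symbols came from the deposited annotation for 17602 genes and from a gene name table for 136. Alternatives covered the pseudocount, filter, scaling, model, replicate block and each library left out, and leaving out BS4 and DSE2 together was added after the data were seen.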

Additional observations from a re-analysis of the deposited data

Results flagged for a closer look

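Among 330 groups of 4 libraries screened by Dixon's test at its 95% critical value, 23 held a library far from the other 3, where chance alone flags about 1 in 20 groups. DSE2 was the high library of the DSE lungs for AGR2 (303 TPM), RSPH1 (39.5 TPM), TP63 (6.82 TPM), PI16 (124 TPM), MFAP5 (136 TPM), PGLYRP1 (61.6 TPM), CFI (100.3 TPM), CYP2S1 (5.52 TPM) and ALDH1A1 (1624 TPM). BS4 was the high library of the BS lungs for ABCA9 (14.7 TPM), HPGD (230 TPM), PDGFRA (14.8 TPM), C3AR1 (39.7 TPM), TFPI2 (55.9 TPM) and CXCL8 (437 TPM). BS1 was high for AGR2 (3.72 TPM) and low for PI16 (8.38 TPM). BS2 was high for CRTAC1 (0.577 TPM) and low for DNAH5 (0.503 TPM). DSE1 was high for RAB1B (121 TPM) and CHAC1 (0.632 TPM), and DSE3 was high for HBM (22.0 TPM) and NPPB (0.545 TPM).

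The BS minus DSE difference in lung was unlike that of the same animals' other tissues in 11 named genes, on the log2(TPM + 1) scale. It was larger in lung for ENSSSCG00000060961 (2.02), CCL22 (1.98), ENSSSCG00000037565 (1.92), ENSSSCG00000056711 (1.87) and BHLHE40 (1.64). It was more negative in lung for ENSSSCG00000051569 (-2.99), CRTAC1 (-2.76), ENSSSCG00000013788 (-2.47), FAM13C (-1.78), ENSSSCG00000039706 (-1.74) and CCN5 (-1.73). The calls of these 11 genes each held in only 2 (CCN5) to 8 (CRTAC1) of 12 alternative settings.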

How the results depend on the processing

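The 404 higher and 956 lower genes became 726 and 512 under median-ratio scaling and 2147 and 4008 with no minimum fold. Leaving out 1 library at a time gave 356 to 502 higher and 510 (without BS2) to 1533 (without BS4) lower genes, and leaving out BS4 and DSE2, chosen after seeing the data, gave 1550 lower. The 1354 shifted transcripts became 842 in genes of at least 20 TPM, 2531 with a shift of at least 10 points and 800 to 2252 with 1 library left out. The 21 genes that differed between lung and the other tissues became 7 with a pseudocount of 0.1 TPM, 0 (without BS1 or DSE1, with 2875 and 2120 at an unadjusted limma p under 0.05) to 178 (without BS4) with 1 library left out and 140 without BS4 and DSE2. The difference in mitochondrial share turned to -0.168 points without BS1 and -0.266 without BS2, in a range of -0.266 to 0.543 with 1 library left out. C1QC turned to log2 -0.0866 without BS3, -0.127 without DSE2 and -0.103 without both BS4 and DSE2, in a range of -0.127 to 0.185 with 1 library left out. No call of the 151 named called genes turned its direction, 85 held under all settings tried, 123 under median-ratio scaling and 111 (without BS2) to 138 (without BS4) with 1 library left out. The deviations of animals with the same number had r of -0.237 to -0.0424 over genes. The best-matching DSE animal of each BS animal had another number, with r of 0.0938 to 0.2. Whether the numbers mark a pairing was not tested. With the number as a replicate block 375 genes were higher and 808 lower, 803 transcripts shifted, and limma called 0 genes as different between lung and the other tissues (2829 at an unadjusted p under 0.05). The causes of these changes were not tested. Depth, unknown from TPM, limits what is said of genes near 1 TPM.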
